A study of Mus musculus with 6 samples.

Results

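Nonclassical monocytes are blood monocytes that crawl along the inside of small vessels, and the lung capillaries hold many of them. The members described here were picked from the deposited single-cell counts by a fixed gate on UMIs, the molecular tags that count each captured transcript once. A member had at least 200 detected genes, at most 10% mitochondrial UMIs and at least 3 UMIs over Treml4, Ace, Cd300e, Adgre4 and Eno3 together. It also had at most 1 UMI of Ly6c2, fewer than 5% of its UMIs from S100a8 and S100a9, at most 1 UMI of Ly6g and Cxcr2, at most 3 of C1qa, C1qb and C1qc, at most 1 of Marco, Plet1 and Atp6v0d2, and none of Cdh5, Cldn5, Cd79a or Cd3e. The gate held 1368 of the 61736 cells that passed the quality filter.

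The cells came from mouse lungs, enriched with beads for CD45, the surface protein of blood-derived cells, after digestion of the whole lung and lysis of red cells. The 6 libraries were NOS1 knockout (KO) mice 4 h after an intraperitoneal dose of 10 mg/kg LPS, a bacterial cell wall component (2 libraries), wild type (WT) mice after the same LPS (2 libraries), KO mice given vehicle (1 library) and WT mice given vehicle (1 library). The series names the wild type strain as C65BL6. The deleted part of Nos1, the neuronal nitric oxide synthase gene, is not given, nor are ages, and no label says that replicate libraries came from separate animals, so p-values measure only the spread between these libraries. The gate held 259 and 194 members in the KO LPS libraries, 188 and 194 in the WT LPS libraries, 199 in the KO vehicle library and 334 in the WT vehicle library.

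Nonclassical monocytes arise from classical, Ly6C-high monocytes under the control of the nuclear receptor Nr4a1 and live longer than they do. They patrol vessel walls through the integrin LFA-1 and the fractalkine receptor Cx3cr1, take up debris and immune complexes through Fc gamma receptors, and call in neutrophils when the endothelium is damaged. LPS is sensed by Cd14, Ly96 and Tlr4, whose adaptors switch on NF-kB and its inflammatory targets and, through a second arm, interferon beta and the interferon-stimulated genes. SOCS1, named in the title of the series, is an inhibitor of cytokine receptor signalling that is itself induced by it.

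Libraries held 55361477 to 115225284 UMIs in all, and the median member had 7139 and 4858 UMIs in the KO LPS libraries, 6984 and 5515 in the WT LPS libraries, 4335 in the KO vehicle library and 3386 in the WT vehicle library. No member barcode occurred in more than 1 library. Nos1 had 0 to 5 UMIs per library over all quality cells and 0 in the members, so these counts check nothing about the knockout. The libraries also differed in sex-linked transcripts, and the labels give no sex. Members with an Xist UMI and none of Ddx3y, Uty, Kdm5d or Eif2s3y (Xist-marked) made up 40.2% and 35.1% of the KO LPS members, 57.4% and 59.3% of the WT LPS members, 79.4% of the KO vehicle members and 0% of the WT vehicle members. Members with a UMI of those Y-linked genes and no Xist (Y-marked) made up 22% and 24.7% of the KO LPS members, 0% in both WT LPS libraries and in the KO vehicle library, and 49.4% in the WT vehicle library. Both KO LPS libraries thus held both kinds of cell, 57 and 48 of them Y-marked. The comparison of genotypes under LPS is therefore given below for all members and by mark, and between the vehicle libraries sex mark and genotype cannot be told apart.

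The members carried the programme of nonclassical monocytes beyond the genes that chose them. Of 18 markers outside the gate, 16 had a higher level in the members than in classical monocytes of the same library (Ly6c2 and Lyz2 both at least 3 UMIs, 2725 cells) in all 6 libraries. Classical monocytes also had at most 1 UMI over Treml4, Ace, Cd300e, Adgre4 and Eno3 together. They met the members' other limits, Ly6c2 aside, and had no UMI of Siglech, Ncr1, Cd8a or Flt3. Levels in this paragraph are CPM, UMI counts scaled to a common total per library and class, with plain scaling. Fcgr4, the activating Fc gamma receptor typical of these cells, had 530.1 and 502 CPM in KO LPS members, 726 and 679 CPM in WT LPS members, 266 CPM in KO vehicle members and 241 CPM in WT vehicle members, against 6.87 to 181 CPM in classical monocytes. The integrin subunit Itgal, a chain of LFA-1, had 719.9 to 1074 CPM in members against 121 to 164 CPM in classical monocytes, and the transcription factor Pou2f2 had 1082 to 1298 CPM against 239 to 686 CPM. The scavenger receptor Cd36 had 80.6 to 384 CPM in members and 1.37 to 7.46 CPM in classical monocytes. The exceptions were Cx3cr1, which in the WT LPS libraries was lower in members (1.41 and 3.35 CPM) than in classical monocytes (14.5 and 12.2 CPM), and the apolipoprotein gene Apoc2, which in 1 KO LPS library stood at 134 CPM in members and 138 CPM in classical monocytes. The members had to be low in Ly6c2 and the classical monocytes low in the gate's marker genes. These differences between the classes are therefore a description and were not tested.

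The genes of the gate themselves are described without a test, since they chose the cells, and again with plain scaling. Ace, an endothelial and myeloid peptidase, stood at 114 and 123 CPM in KO LPS members and 62.2 and 51.1 CPM in WT LPS members, against 819 CPM in KO vehicle members and 847 CPM in WT vehicle members. Eno3, a glycolytic enolase, stood at 33.9 and 38.9 CPM in KO LPS members and 20.5 and 20.1 CPM in WT LPS members, against 410.2 and 538 CPM in KO and WT vehicle members. Treml4, a receptor of the TREM family, had 306 to 387 CPM in LPS members and 393 CPM in both vehicle libraries. With TMM scaling, introduced below, Treml4 had 347 to 405 CPM in LPS members. On that scale KO and WT vehicle members had 332 and 334 CPM, so its order depends on the scaling. Cd300e, an activating myeloid receptor, stood at 155 to 245 CPM in LPS members and 179 and 277 CPM in KO and WT vehicle members. Adgre4, an adhesion receptor, stood at 226 and 233 CPM in KO LPS members and 191 and 198 CPM in WT LPS members, against 462 and 506 CPM in KO and WT vehicle members. Members therefore rested on fewer of the 5 genes under LPS: 8.76% to 24.7% of LPS members had 4 or 5 of them, against 57.3% and 61.4% of KO and WT vehicle members. Just inside the threshold, 243 members had exactly 3 UMIs of the 5 genes, and just outside it 340 cells had 2 and met the other conditions. Those at exactly 3 UMIs made up 20.5% to 30.4% of LPS members and 6.03% and 7.19% of KO and WT vehicle members. Pou2f2 was detected in 94.7% of the cells just inside and 78.5% of those just outside, Csf1r in 72.0% inside and 54.4% outside, and Fcgr4 in 70.4% inside and 61.2% outside. Clec4a1 was found in 90.1% inside and 73.5% outside, Gngt2 in 84.8% and 71.8%, and Spn in 24.7% and 19.4%. In the second KO LPS library Spn and Gngt2, and in the second WT LPS library Spn, were found more often outside than inside.

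**Figure D1:**
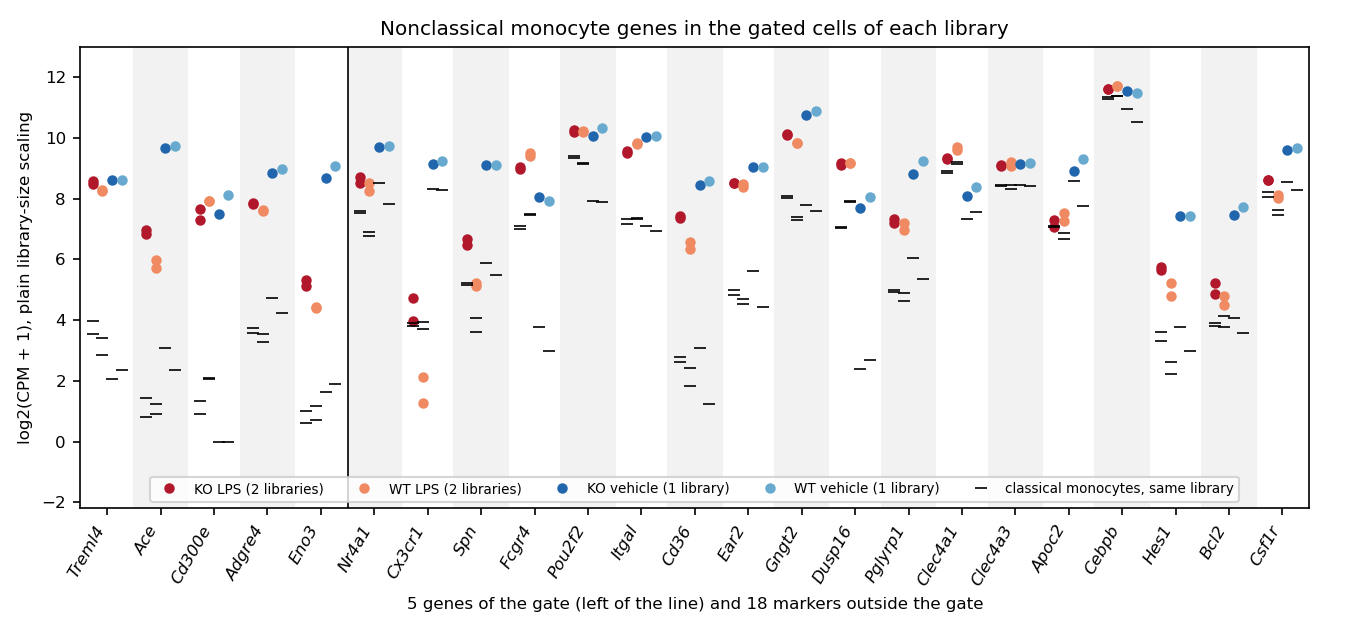
Levels of the 5 genes of the gate and 18 further markers, as log2(CPM + 1) with plain library-size scaling, where each coloured point is the members of 1 library and each black dash the classical monocytes of the same library. Points lie above the dashes in all 6 libraries for 16 of the 18 markers outside the gate, and Ace, Eno3, Cx3cr1 and Spn are lower in the 4 LPS libraries than in the 2 vehicle libraries. The classical monocytes were chosen to be low in the 5 genes of the gate.

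Transcripts of other cell types were present in the members, and several of their lists moved with LPS. Classical monocyte markers, 10 genes of the closest class, summed to 4828 and 4100.0 CPM in KO LPS members and 5490.2 and 6164 CPM in WT LPS members, against 831 and 966 CPM in KO and WT vehicle members. The sum did not stand for the whole list: in the LPS test below, 4 of the 10 genes were called higher and 4 lower. Over all genes of that test, 26.6% were called higher and 25.8% lower, the background also for the lists that follow. A list of 10 neutrophil markers summed to 4722 and 4644 CPM in KO LPS members and 5762 and 6849 CPM in WT LPS members, against 149.6 and 143 CPM in KO and WT vehicle members (CPM scaled by TMM, the trimmed mean of M-values, as in all later levels unless stated). Most of that sum was Lcn2, and Ltf stayed below 10 CPM in every library. Neutrophils (S100a8 and S100a9 at least 5% of UMIs) made up 32.7% to 41.8% of LPS cells and 3.89% to 4.43% of vehicle cells. B cells, which should lack Lcn2, were taken as a background: it had 469 to 1265 plain CPM in the B cells of the LPS libraries against 3548 to 5071 plain CPM in the members. Of 8 endothelial markers, summed to 106 to 176 CPM in LPS members and 67.8 and 46.0 CPM in KO and WT vehicle members, 5 stayed below 10 CPM in every library. Of 8 B cell markers, 4 stayed below 10 CPM, and the list summed to 34.8 to 79.1 CPM in LPS members and 212 and 310.5 CPM in KO and WT vehicle members. T and NK cell markers summed to 197 to 388 CPM in LPS members and 169 and 230.2 CPM in KO and WT vehicle members. Of 7 tested genes of that list, 1 was called higher under LPS and 4 lower. All 6 platelet markers stayed below 10 CPM. Alveolar macrophage markers summed to 990 to 1219 CPM in LPS members and 392 and 643 CPM in KO and WT vehicle members. Interstitial macrophage markers summed to 1425 to 2077 CPM in LPS members and 2152 and 2578 CPM in KO and WT vehicle members, although 3 of 6 tested genes were called higher under LPS and 2 lower. Dendritic cell markers summed to 43.2 to 266 CPM in LPS members and 325 and 179 CPM in KO and WT vehicle members. Their part in the results below was not tested.

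The share of quality cells in the gate was 2.24% and 2.31% in the KO LPS libraries and 1.75% and 1.61% in the WT LPS libraries, against 2.32% in the KO vehicle library and 3.23% in the WT vehicle library. All 4 LPS values lay below both vehicle values, although the 95% exact binomial interval of the KO LPS libraries (1.98% to 2.52% and 2.00% to 2.66%) and of the KO vehicle library (2.01% to 2.66%) overlap; these intervals cover counting error only. The mean share was 1.98% ± 0.352 (SD, n = 4) under LPS and 2.77% under vehicle (n = 2), a log2 difference of -0.49, and a two-sided exact permutation test of 4 against 2 libraries gave p = 0.133, the smallest it can give. The direction depended on the denominator. Among cells outside the neutrophil gate the share averaged 3.14% under LPS and 2.89% under vehicle (log2 difference 0.12, exact permutation p = 0.53). Per 100 classical monocytes there were 52.1 and 45.0 members in the KO LPS libraries and 25.6 and 24.9 in the WT LPS libraries, against 143 in the KO vehicle library and 229 in the WT vehicle library. Ace and Eno3, which count towards the gate, were lower under LPS, and leaving Ace out of the gate's genes gave a log2 difference of -0.46. Of quality cells with at least 3 UMIs of the marker genes, the Ly6c2 limit removed more under LPS. It removed 612 of 1431 and 345 of 900 in KO LPS and 486 of 928 and 403 of 803 in WT LPS. In KO vehicle it removed 185 of 867 and in WT vehicle 141 of 1049. The S100a8 and S100a9 limit removed 218 to 336 under LPS and 10 and 0 under vehicle. The Cd79a and Cd3e limit removed 97 to 261 under LPS and 380 and 419 under vehicle. The gate counts UMIs, and LPS members were the deeper ones. Cells were therefore also thinned at random to 2000 UMIs each, a step added after the depths were seen. Cells with fewer UMIs were left out. The share then averaged 0.859% under LPS and 3.21% under vehicle (log2 difference -1.90, exact permutation p = 0.133). Fewer cells, less RNA of the gate's genes per cell, cell depth and these exclusions cannot be told apart.

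LPS changed about as many genes as it left uncalled in the members. Saa3, an acute phase protein, Cxcl10, the ligand of Cxcr3, the ectoenzyme Cd38 and the vessel constrictor endothelin-1 (Edn1) were among the largest rises, and Cx3cr1, which reads fractalkine on the vessel wall, was the largest fall among genes with at least 50 CPM in a group and libraries that do not overlap. Of 8848 genes tested on counts summed per library (edgeR's quasi-likelihood test, Benjamini-Hochberg adjusted p under 0.05), 2353 were higher under LPS and 2287 lower, which is 52.4% of the genes tested, 26.6% higher and 25.8% lower. The median log2 fold change over all tested genes was -0.03. Plain library-size scaling in place of TMM moved that median to -0.39 and the calls to 1546 higher and 3446 lower, so small differences depend on the scaling, and changes here are relative to the TMM scale. Log2 fold changes are given ± their standard error, with adjusted p-values from this edgeR fit. Within genotypes, the same fit called 1656 higher and 1383 lower in KO and 1988 higher and 1822 lower in WT. Only 1 vehicle library stood on each side, so the spread came from the 2 pairs of LPS libraries, and in WT all marked LPS members were Xist-marked and all marked vehicle members Y-marked.

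Among the 12 largest rises, several transcripts were close to absent without LPS. Saa3 had 7130.2 and 4689 CPM in KO LPS, 9735 and 13338 CPM in WT LPS, 0 CPM in KO vehicle and 1.32 CPM in WT vehicle members, from 2 UMIs in both vehicle libraries together (ratio 11333, 95% counting interval 3137 to 93580). Cxcl10 had 3466 and 2476 CPM in KO LPS, 3781 and 3808 CPM in WT LPS, 1.76 CPM in KO vehicle and 1.97 CPM in WT vehicle members (log2 fold change 10.75 ± 0.25, adjusted p = 1.9e-11). Every LPS library exceeded both vehicle libraries for both genes, and Saa3 was lower in the KO LPS libraries than in the WT LPS libraries. Cd38, which hydrolyses NAD, had 220.2 and 237 CPM in KO LPS, 435 and 445 CPM in WT LPS, 0 CPM in KO vehicle and 0.658 CPM in WT vehicle members (ratio 850.4, 95% counting interval 152 to 33609). Edn1 had 282 and 262 CPM in KO LPS, 469 and 293 CPM in WT LPS, 0.880 CPM in KO vehicle and 0 CPM in WT vehicle members (ratio 866, 95% counting interval 155 to 34207). In both genes the vehicle libraries held a single UMI together. Acod1, which makes the antimicrobial metabolite itaconate, had 928 and 869.8 CPM in KO LPS, 1469.8 and 1434 CPM in WT LPS, 2.64 CPM in KO vehicle and 0.658 CPM in WT vehicle members (log2 fold change 9.64 ± 0.18, adjusted p = 3.1e-12). Lcn2, the siderophore-binding lipocalin that neutrophils also store, had 3870.1 and 3715 CPM in KO LPS, 4906 and 5767 CPM in WT LPS, 8.80 CPM in KO vehicle and 3.95 CPM in WT vehicle members (log2 fold change 9.55 ± 0.15, adjusted p = 1.1e-12). The LPS and vehicle libraries of both genes lay far apart, and for Lcn2 the B cells of every LPS library had a lower level than its members.

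Of the other largest rises, 6 had no UMI in either vehicle library, so their folds are lower bounds against a floor of 3 counts over the vehicle libraries. These were the neutrophil attractant Cxcl3 (at least 77.1-fold higher), Timp1, the inhibitor of matrix metalloproteinases (at least 77.7-fold), Trim30c of the TRIM family (at least 73.2-fold), the acute phase protein gene Orm1 (at least 63.8-fold), U90926 (at least 64.4-fold) and the endothelial lipase gene Lipg (at least 78.6-fold). Timp1 had 68.8 and 53.6 CPM in KO LPS, 135 and 93.3 CPM in WT LPS, 0 CPM in KO vehicle and 0 CPM in WT vehicle members. U90926 had 23.3 and 49.6 CPM in KO LPS, 94.3 and 124 CPM in WT LPS, 0 CPM in KO vehicle and 0 CPM in WT vehicle members, with the higher values in the WT LPS libraries.

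Cx3cr1 led the falls. It had 15.5 and 26.8 CPM in KO LPS, 1.57 and 3.81 CPM in WT LPS, 482 CPM in KO vehicle and 513 CPM in WT vehicle members (log2 fold change -6.1 ± 0.18, adjusted p = 8.8e-11). A Cx3cr1 UMI was found in 6.95% and 9.79% of KO LPS members and 1.06% and 1.55% of WT LPS members, against 82.9% of KO vehicle members and 80.8% of WT vehicle members, although the LPS members were the deeper ones. Mef2c, a transcription factor of myeloid and muscle cells, had 11.4 and 10.9 CPM in KO LPS, 3.93 and 5.71 CPM in WT LPS, 191 CPM in KO vehicle and 269.7 CPM in WT vehicle members (log2 fold change -4.94 ± 0.16, adjusted p = 1.5e-10). Slc12a2, the sodium, potassium and chloride cotransporter, had 7.24 and 18.9 CPM in KO LPS, 7.07 and 5.71 CPM in WT LPS, 234 CPM in KO vehicle and 212 CPM in WT vehicle members (log2 fold change -4.68 ± 0.21, adjusted p = 2.9e-09). In each of these 3 genes the 4 LPS libraries lay below both vehicle libraries, and the WT LPS values were the lowest for Cx3cr1 and Mef2c. The lysosomal transporter Slc46a3 (log2 fold change -4.81), the adducin Add3 (-4.77), the kinesin Kif21b (-4.61), the Myc antagonist Mxi1 (-4.42), Ypel3 (-4.65), Mdm1 (-4.76), Ldlrad3 (-5.01) and Apol7c (-5.47) fell as well. Apol7c lost its call with DESeq2 and among members with at least 2 genes of the gate.

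**Figure D2:**
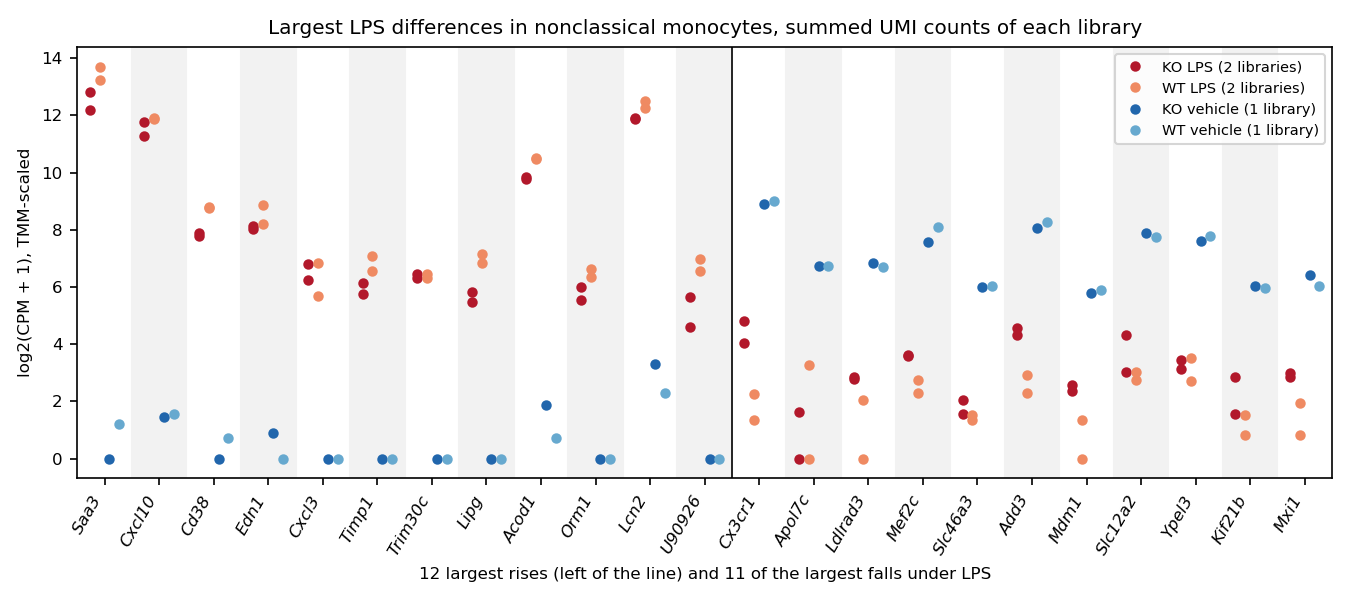
The 12 largest rises and 11 of the largest falls between LPS and vehicle in the members, as log2(CPM + 1) with TMM scaling, 1 point per library. For every gene the 4 LPS points and the 2 vehicle points do not overlap, with Cxcl10 at 2476 to 3808 CPM under LPS and 1.76 and 1.97 CPM under vehicle, and Cx3cr1 at 1.57 to 26.8 CPM under LPS and 482 and 513 CPM under vehicle.

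Promoter windows of 4 of these genes are shown because they hold, or lack, the motifs of the factors that LPS is known to activate: the interferon-stimulated response element, searched as GAAA and GAAA with any 2 bases between them, and the NF-kB site, searched as GGGA and CC with any 4 bases between them, each on both strands. Sequences are from RefSeq on build GRCm38.p6, 5′ to 3′ on the gene's strand, from 250 bases before to 50 after the start, with motif matches in capitals. Cxcl10 and Isg15 are shown as examples of interferon-stimulated genes, Nfkbia of NF-kB feedback and Cx3cr1 as a single gene from the falls.
Cxcl10, chr5:92348840-92349139, minus strand: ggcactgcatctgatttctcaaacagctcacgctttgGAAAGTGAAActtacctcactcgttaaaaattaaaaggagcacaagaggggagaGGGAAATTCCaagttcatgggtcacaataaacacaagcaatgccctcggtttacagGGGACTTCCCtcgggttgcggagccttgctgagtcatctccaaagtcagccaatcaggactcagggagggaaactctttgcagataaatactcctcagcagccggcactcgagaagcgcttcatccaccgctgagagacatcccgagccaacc
Isg15, chr4:156200769-156201068, minus strand: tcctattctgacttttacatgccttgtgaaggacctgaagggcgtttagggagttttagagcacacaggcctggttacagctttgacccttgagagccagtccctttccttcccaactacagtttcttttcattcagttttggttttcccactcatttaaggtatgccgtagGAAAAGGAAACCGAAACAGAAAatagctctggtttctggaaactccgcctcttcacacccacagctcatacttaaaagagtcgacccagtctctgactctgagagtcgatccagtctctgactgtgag
Nfkbia, chr12:55492598-55492897, minus strand: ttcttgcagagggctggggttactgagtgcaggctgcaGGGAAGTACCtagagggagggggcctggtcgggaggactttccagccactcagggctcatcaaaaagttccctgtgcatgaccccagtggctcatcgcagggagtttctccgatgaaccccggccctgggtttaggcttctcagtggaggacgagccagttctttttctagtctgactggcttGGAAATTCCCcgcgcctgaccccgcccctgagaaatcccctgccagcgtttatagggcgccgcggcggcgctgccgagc
Cx3cr1, chr9:120068247-120068546, minus strand: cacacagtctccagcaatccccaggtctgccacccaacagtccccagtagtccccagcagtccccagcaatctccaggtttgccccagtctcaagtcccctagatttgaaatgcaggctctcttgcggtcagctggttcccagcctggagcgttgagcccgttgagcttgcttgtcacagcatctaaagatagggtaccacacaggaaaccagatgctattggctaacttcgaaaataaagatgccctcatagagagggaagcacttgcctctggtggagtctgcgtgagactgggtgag
The Cxcl10 window held 1 match of the response element and 2 of the NF-kB motif, the Isg15 window 3 overlapping matches of the response element, the Nfkbia window 2 of the NF-kB motif and the Cx3cr1 window none of either. Over 27025 genes with a window, 3.99% had the response element and 22.9% the NF-kB motif. Among the 7120 genes tested in the members that matched a window, these shares were 4.34% and 30.2%. Of the interferon-stimulated list, 31 genes matched a window and 19 of them (61.3%) had the response element in any window of theirs. Of the list of NF-kB subunits and feedback genes, 16 matched and 11 (68.8%) had the NF-kB motif. Of the 12 largest rises under LPS, 10 matched a window, 3 with the response element and 3 with the NF-kB motif. Of the 12 largest falls, 9 matched, 2 with the response element and 4 with the NF-kB motif, so the empty Cx3cr1 window does not describe the falls. These matches are letters in a window and no evidence of binding.

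Receptors and adaptors that sense LPS moved in both directions. Of 21 tested genes of the list, 10 rose and 8 fell (with DESeq2 7 rose and 2 fell), against 26.6% higher and 25.8% lower over all genes tested, the background for each list count under LPS. The co-receptor Cd14 had 643 and 594 CPM in KO LPS, 832 and 942 CPM in WT LPS, 57.2 CPM in KO vehicle and 19.7 CPM in WT vehicle members (log2 fold change 4.46 ± 0.13, adjusted p = 7.0e-11). The LPS-binding partner Ly96 rose with a log2 fold change of 2.52. Tlr4 itself was not called, with 10.9 and 13.9 CPM in KO LPS, 14.1 and 16.2 CPM in WT LPS, 15.8 CPM in KO vehicle and 14.5 CPM in WT vehicle members. The adaptor Myd88 (2.11) and the inhibitory kinase Irak3 (2.73) rose, while Cd180, a relative of Tlr4 without its signalling domain, fell (-3.72), as did the nucleic acid sensors Tlr7 (-0.70), Tlr8 (-1.58) and Tlr13 (-1.02).

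NF-kB subunits and feedback genes rose together: 16 of 19 tested members were higher and 2 lower, with a median log2 fold change of 1.55 against -0.03 over all genes. The inhibitor Nfkbia, which retains NF-kB in the cytoplasm, had 3699 and 3609 CPM in KO LPS, 4729 and 4698 CPM in WT LPS, 419.7 CPM in KO vehicle and 318 CPM in WT vehicle members (log2 fold change 3.5 ± 0.07, adjusted p = 4.6e-12). Tnfaip3, the ubiquitin-editing brake of NF-kB signalling, had 614 and 527 CPM in KO LPS, 828 and 899.7 CPM in WT LPS, 46.6 CPM in KO vehicle and 25.7 CPM in WT vehicle members (log2 fold change 4.34 ± 0.13, adjusted p = 1.0e-10). In both, all 4 LPS libraries lay above both vehicle libraries. The coactivator Bcl3 (3.72) and the RNase Zc3h12a (2.84) rose, as did the subunits Nfkb1 (0.76), Rela (0.73) and Relb (0.70). The 2 that fell were Rel (-0.31) and the deubiquitinase Cyld (-0.69).

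Of 20 tested cytokines, 16 rose and 3 fell, and of 16 chemokines 13 rose and 1 fell, against 26.6% higher and 25.8% lower over all genes. Il1b, the inflammasome cytokine, had 4383 and 4619 CPM in KO LPS, 5962 and 6678 CPM in WT LPS, 421 CPM in KO vehicle and 277 CPM in WT vehicle members (log2 fold change 3.96 ± 0.08, adjusted p = 5.3e-12). Il1rn, the decoy ligand that blocks the same receptor, had 1313 and 1186 CPM in KO LPS, 1942 and 2117 CPM in WT LPS, 10.6 CPM in KO vehicle and 3.29 CPM in WT vehicle members (log2 fold change 8.05 ± 0.15, adjusted p = 3.1e-12). Tnf had 86.3 and 82.4 CPM in KO LPS, 108 and 178 CPM in WT LPS, 7.92 CPM in KO vehicle and 16.4 CPM in WT vehicle members (log2 fold change 3.25 ± 0.28, adjusted p = 1.2e-06), and all 4 LPS libraries of each of these genes exceeded both vehicle libraries. The interleukin-27 subunits Il27 (2.41) and Ebi3 (3.14) rose. The anti-inflammatory cytokine Il10 rose with 3.62 to 20.0 CPM in LPS members and no vehicle UMI, and Il6 with 11.8 to 20.9 CPM in LPS members and 1 vehicle UMI. The falls were Il12b (-3.19), Tnfsf13b (-2.14), a B cell survival factor, and Tgfb1 (-1.21). Among chemokines, Ccl4, a chemokine that attracts monocytes and T cells, had 3729 and 3433 CPM in KO LPS, 5480 and 5326 CPM in WT LPS, 18.5 CPM in KO vehicle and 4.60 CPM in WT vehicle members (log2 fold change 8.88 ± 0.12, adjusted p = 5.6e-13). Ccl5 had 8753 and 8293 CPM in KO LPS, 12576 and 15539.8 CPM in WT LPS, 1077 CPM in KO vehicle and 318 CPM in WT vehicle members (log2 fold change 4.22 ± 0.10, adjusted p = 1.3e-11), with a KO vehicle value above that of the WT vehicle library. The neutrophil attractant Cxcl2 (6.64), the monocyte attractant Ccl2 (4.09) and the Cxcr3 ligand Cxcl9 (5.09) rose too. Cxcl1 at 4.72 to 25.7 CPM, Ccl12 at 35.2 to 70.3 CPM and Ccl7 at 7.86 to 39.8 CPM in LPS members rose from 0, 0 and 1 vehicle UMIs. With genes of 0 to 3 vehicle UMIs set to their bounds, the list medians came to 3.01 for cytokines and 4.66 for chemokines. Ccl6 fell (-1.63).

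Every tested gene of the interferon-stimulated list rose, 38 of 38 against 26.6% of all genes tested, with a median log2 fold change of 3.77, and the same 38 were called in the fit on Xist-marked members alone, where the KO vehicle library is the vehicle side. Isg15, a ubiquitin-like modifier, had 3711 and 2879 CPM in KO LPS, 4815 and 4799 CPM in WT LPS, 57.2 CPM in KO vehicle and 41.4 CPM in WT vehicle members (log2 fold change 6.35 ± 0.14, adjusted p = 9.6e-12). Rsad2, the antiviral enzyme viperin, had 1179 and 1094 CPM in KO LPS, 1416 and 1654 CPM in WT LPS, 19.4 CPM in KO vehicle and 5.26 CPM in WT vehicle members (log2 fold change 7.02 ± 0.15, adjusted p = 9.6e-12). Oasl1, an oligoadenylate synthetase-like protein, had 581 and 509 CPM in KO LPS, 556 and 666 CPM in WT LPS, 13.2 CPM in KO vehicle and 1.32 CPM in WT vehicle members (log2 fold change 7.06). The vehicle libraries lay below all 4 LPS libraries in each. The guanylate-binding protein Gbp2 (4.11) and the interferon-gamma-responsive GTPases Igtp (3.72) and Iigp1 (34.8 to 68.8 CPM in LPS members, no vehicle UMI) rose, as did the transcription factors Irf7 (4.24) and Irf1 (2.15). Isg15 UMIs were also found in 64.0% to 89.3% of the B cells of LPS libraries, with 757 to 1701 plain CPM against 2749.7 to 4332 plain CPM in members, and in 4.76% and 3.26% of the B cells of the KO and WT vehicle libraries.

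The feedback arm of JAK-STAT signalling rose in part. Socs1 had 135 and 131 CPM in KO LPS, 182 and 194 CPM in WT LPS, 14.1 CPM in KO vehicle and 6.58 CPM in WT vehicle members (log2 fold change 4.03 ± 0.18, adjusted p = 2.9e-09). Socs3, which restrains interleukin-6 signalling, had 1635 and 1575 CPM in KO LPS, 2114 and 2228 CPM in WT LPS, 133 CPM in KO vehicle and 107 CPM in WT vehicle members (log2 fold change 3.97 ± 0.09, adjusted p = 9.6e-12). Cish (5.33), the phosphatase Ptpn1 (2.88) and Usp18 (4.42), which removes Isg15 from proteins and blocks the interferon receptor, rose as well, 7 of 13 tested genes in all, while Socs2 (-1.05) and Ptpn11 (-0.45) fell. Socs4, Socs5 and Socs7 were not called. Of the 8 tested genes of nitric oxide and arginine metabolism, 5 rose. Nos2, the inducible synthase, had 9.82 and 2.98 CPM in KO LPS, 41.7 and 34.3 CPM in WT LPS, 0 CPM in KO vehicle and 0 CPM in WT vehicle members, at least 19.6-fold higher under LPS, and Arg2, the mitochondrial arginase, rose with a log2 fold change of 4.74. Ass1 (3.27), which recycles arginine, and Gch1 (1.97), which makes the cofactor of the synthases, rose too. Nos1 and Nos3 were too low to be tested.

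Acute phase genes all rose, 12 of 12 tested, with a median log2 fold change of 4.79 (4.38 with genes of 0 to 3 vehicle UMIs at their bounds), including haptoglobin (Hp, 4.33), the manganese superoxide dismutase Sod2 (5.23) and the metallothionein Mt2 (4.36). Of 13 genes of coagulation, fibrinolysis and vessel tone, 11 rose, among them thrombospondin-1 (Thbs1, 3.82), the protease Mmp14 (6.79) and Serpinb2 (3.34), an inhibitor of plasminogen activators. Thrombomodulin, Thbd, which turns thrombin towards protein C, fell (-3.61), as did F13a1 (-0.88). F3, the tissue factor gene, was too low to be tested.

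Patrolling and chemotaxis receptors split almost evenly, with 13 of 27 rising and 12 falling. Receptors for danger signals rose: C3ar1 (32.2 to 48.6 CPM in LPS members, no vehicle UMI) and C5ar1 (log2 fold change 2.58) for complement fragments, Fpr1 (4.36) and Fpr2 (4.38) for formyl peptides, and the chemokine receptor Ccr1 (4.35). Besides Cx3cr1, the receptors that fell included the sialomucin Spn, by which mouse nonclassical monocytes are often sorted. It had 92.0 and 106 CPM in KO LPS, 37.7 and 40.9 CPM in WT LPS, 467 CPM in KO vehicle and 473 CPM in WT vehicle members (log2 fold change -2.92 ± 0.10, adjusted p = 3.8e-10). S1pr5, a sphingosine-1-phosphate receptor needed for these monocytes to leave the bone marrow in mice, fell with a log2 fold change of -3.00, and Cxcr4 (-2.92), Itga4 (-1.56) and Itgax (-1.80) fell too. The integrin chain Itgal was not called, with 792 and 754 CPM in KO LPS, 1019 and 1007 CPM in WT LPS, 879 CPM in KO vehicle and 914 CPM in WT vehicle members, and its ligand Icam1 rose (2.50). Ccr2, the receptor by which classical monocytes leave the bone marrow, fell (-1.41).

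Fc gamma receptors rose with their kinases, 9 of 13 tested genes. Fcgr4 had 557 and 525 CPM in KO LPS, 807 and 772 CPM in WT LPS, 224 CPM in KO vehicle and 205 CPM in WT vehicle members (log2 fold change 1.61 ± 0.08, adjusted p = 1.4e-08). Fcgr1, the high-affinity receptor, rose with a log2 fold change of 3.86 and the inhibitory Fcgr2b with 2.86. The shared signalling chain Fcer1g (1.52) and the kinases Syk (1.44) and Lyn (1.62) rose, while Tyrobp (-0.68), the phospholipase Plcg2 (-1.65) and the inositol phosphatase Inpp5d (-1.02) fell. MHC class I and costimulation genes rose in 18 of 19 cases, among them the checkpoint ligand Cd274 (3.67), Cd80 (3.25) and Cd40 (3.06). Of 7 MHC class II genes none rose and 3 fell, H2-DMa (-2.56), H2-DMb1 (-1.89) and the transactivator Ciita (-0.78), whose call was lost with DESeq2, with at least 5 UMIs of the gate's genes and without 3 of the 6 libraries in turn. Under plain scaling 15 class I genes were higher and 1 lower.

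Genes that set the life span and fate of the cells changed in opposite directions. Bcl2, which these monocytes are known to depend on, had 29.5 and 37.7 CPM in KO LPS, 29.9 and 24.8 CPM in WT LPS, 148 CPM in KO vehicle and 178 CPM in WT vehicle members (log2 fold change -2.44 ± 0.14, adjusted p = 3.0e-08). Its relatives Bcl2a1b (2.92) and Bcl2a1d (2.96) rose, near-identical copies whose reads may be shared. Of 24 tested survival and cell death genes 18 rose (14 under plain scaling), among them Casp4 (3.85), the sensor of cytoplasmic LPS, Mlkl (3.09), the executor of necroptosis, and Fas (3.05), and 4 fell. Nr4a1 had 445 and 385 CPM in KO LPS, 409 and 347 CPM in WT LPS, 702 CPM in KO vehicle and 729 CPM in WT vehicle members (log2 fold change -0.85 ± 0.09, adjusted p = 7.0e-06). Klf4 (-1.70), Klf2 (-0.67), Hes1 (-1.73) and Bcl6 (-1.36) fell, Cebpd (1.58), Spi1 (0.87) and Id2 (2.79) rose, 9 of 20 fate factors up and 8 down. The growth factor receptor Csf1r, which keeps monocytes alive, fell (-0.95), the receptor chain Csf2rb rose (1.98) and the interferon-gamma receptor chain Ifngr1 fell (-2.76). Of the 18 nonclassical markers outside the gate, 11 fell and 6 rose. Of 22 scavenging and complement genes 14 fell, including Lyz2 (-1.59) and Cd36 (-1.24), and 8 rose, including the scavenger receptor Msr1 (4.14) and complement factor B (Cfb, 7.41).

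**Figure D3:**
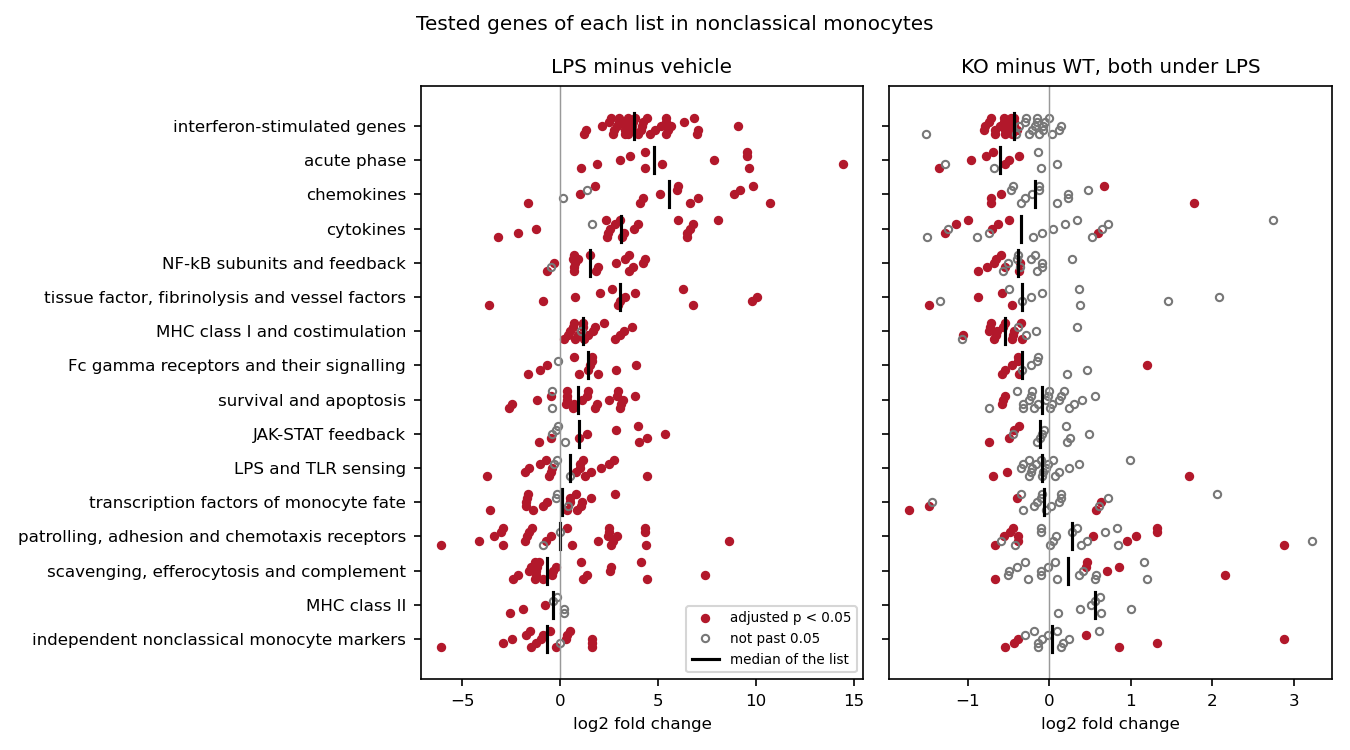
Log2 fold changes of every tested gene of 16 lists, LPS minus vehicle on the left and KO minus WT under LPS on the right, where filled points passed the adjusted p of 0.05 and a bar marks the median of the list. All 38 interferon-stimulated genes lie right of 0 under LPS (median 3.77), and 20 of them are filled left of 0 in the KO comparison (median -0.43).

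Il1b, Isg15 and Cxcl10 were found in most LPS members, while the UMIs of several induced transcripts were concentrated in some members. An Il1b UMI was found in 98.5% and 98.5% of KO LPS members and 98.9% and 99.5% of WT LPS members, against 58.8% of KO vehicle members and 42.5% of WT vehicle members. B cells, which make little Il1b, had one in 17.7% to 43.9% of cells of the LPS libraries. Isg15 was found in 93.8% to 100% of LPS members, against 13.6% and 11.7% of KO and WT vehicle members. Cxcl10 was found in 83.4% and 69.1% of KO LPS members and 93.6% and 91.8% of WT LPS members, against 1.01% and 0.898% of members in the KO and WT vehicle libraries. Cells were then thinned to 2000 UMIs, leaving out 0 to 4 members per LPS library and 8 and 26 members of the KO and WT vehicle libraries that held fewer. Those shares came to 69.8% and 62.1% in KO LPS, 80.3% and 78.8% in WT LPS, 0% in KO vehicle and 0.325% in WT vehicle members. B cells of the LPS libraries gave 33.2% to 43.9% at the same depth. Saa3 was found in fewer of them. It had a UMI in 64.5% and 48.5% of KO LPS members and 80.9% and 80.4% of WT LPS members. The 10% of members with the most UMIs held 60.3% and 75.4% of its UMIs in the KO LPS libraries and 57.5% and 56.5% in the WT LPS libraries. Those 10% held 54.0% to 57.1% of Lcn2, 44.8% to 49.5% of Ccl5, 39.8% to 54.5% of Ccl4 and 41.1% to 51.2% of Cxcl10 UMIs in the LPS libraries, and 24.1% to 28.4% of Nfkbia UMIs. Cxcl10 and Ccl4 were found together in 70.7% and 58.2% of KO LPS members and 87.2% and 88.1% of WT LPS members. Ccl4 had a UMI in 80.3% and 74.7% of KO LPS members and 93.6% and 94.8% of WT LPS members. High joint shares follow in large part from such single shares, and a link between both genes was not tested.

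Between genotypes under LPS fewer genes differed. Stk10, Lair1, Ddit4, Fkbp5 and Ceacam1 were higher in KO members, and Cebpd, Ptges, Slc28a2, Mt2 and many interferon-stimulated and MHC class I genes were lower. Of 8848 genes, 212 were higher in KO LPS members than in WT LPS members and 273 lower, 5.48% of those tested, 2.4% higher and 3.09% lower (edgeR, same fit). Plain scaling gave 300 higher and 176 lower, so the balance between the directions depends on the scaling. These libraries are the same as in the LPS comparison, so its values and these are not independent. Y-marked members occurred in the KO LPS libraries and not in the WT LPS libraries, and they are part of the sums from which these genes were called. Levels and ratios by mark, here and below, use plain scaling, with 5 CPM added to both sides of each ratio. They are therefore not on the TMM scale of the levels over all members that stand beside them. Log2 fold changes among Xist-marked members come from a fit with TMM scaling. Among the 212 genes higher in KO, the median log2 ratio to Xist-marked WT LPS members was 1.29 in Y-marked KO LPS members and 0.38 in Xist-marked ones, with the ratio larger in the same direction in Y-marked members for 183. Among the 273 lower genes these medians were -0.79 in Y-marked and -0.34 in Xist-marked KO LPS members, with 215 larger in Y-marked members. Over all 8872 genes of the fit, those of the gate included, 4425 were larger in Y-marked members in the direction of their fitted difference. A fit on Xist-marked members alone, added after the values were seen, called 27 higher and 26 lower of 7815 genes (0.345% higher and 0.333% lower), from fewer cells.

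Stk10, a serine and threonine kinase of blood cells, had 161 and 173 CPM in KO LPS members, against 58.9 and 49.5 CPM in WT LPS members (log2 fold change 1.61 ± 0.14, adjusted p = 1.3e-04). By mark, Stk10 had 305 and 244 CPM in Y-marked KO, 52.5 and 90.2 CPM in Xist-marked KO and 46.0 and 48.3 CPM in Xist-marked WT members. The Y-marked KO members thus stood above both Xist-marked groups. Lair1, an inhibitory receptor for collagen, had 118 and 119 CPM in KO LPS members, against 33.0 and 33.3 CPM in WT LPS members (log2 fold change 1.84 ± 0.15, adjusted p = 1.2e-04). By mark, Lair1 had 211 and 164 CPM in Y-marked KO, 44.0 and 62.7 CPM in Xist-marked KO and 34.8 and 29.5 CPM in Xist-marked WT members. Ddit4, an inhibitor of the growth kinase complex mTORC1, had 55.3 and 68.5 CPM in KO LPS members, against 7.86 and 15.2 CPM in WT LPS members (log2 fold change 2.42 ± 0.27, adjusted p = 6.4e-04). In all 3 genes the KO and WT libraries did not overlap, and within the KO libraries the Y-marked members were the higher ones. Among Xist-marked members the log2 fold changes were 0.51 for Stk10, 0.66 for Lair1 and 0.79 for Ddit4, with edgeR adjusted p of 0.35 to 0.68. Fkbp5, a chaperone of steroid receptors that glucocorticoids induce, had 124 and 122 CPM in KO LPS members, against 32.2 and 34.3 CPM in WT LPS members (log2 fold change 1.89 ± 0.16, adjusted p = 1.2e-04). By mark, Fkbp5 had 246 and 191 CPM in Y-marked KO, 54.9 and 52.6 CPM in Xist-marked KO and 35.9 and 40.3 CPM in Xist-marked WT members, and its log2 fold change among Xist-marked members was 0.52 (edgeR adjusted p = 0.50). The GTPase-activating protein Sh3bp1 (log2 fold change 1.86 over all members) and Tifab (1.59), an adaptor related to TRAF signalling, had log2 fold changes of -0.19 and -0.30 in the fit on Xist-marked members, where neither was called.

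Some differences held among Xist-marked members. Ahnak, a giant scaffold protein, had 557 and 550.1 CPM in KO LPS members, against 193 and 223 CPM in WT LPS members (log2 fold change 1.42 ± 0.10, adjusted p = 8.6e-05). By mark, Ahnak had 529 and 454 CPM in Y-marked KO, 538 and 519 CPM in Xist-marked KO and 201 and 265 CPM in Xist-marked WT members. Ceacam1, an adhesion molecule and receptor with inhibitory signalling, had 119 and 98.3 CPM in KO LPS members, against 24.4 and 20.0 CPM in WT LPS members (log2 fold change 2.30 ± 0.19, adjusted p = 1.2e-04). By mark, Ceacam1 had 234 and 187 CPM in Y-marked KO, 64.7 and 47.6 CPM in Xist-marked KO and 22.5 and 20.1 CPM in Xist-marked WT members. Among Xist-marked members its log2 fold change was 1.46 ± 0.27 (edgeR, adjusted p = 0.019). Cebpd, a transcription factor of the inflammatory response, had 123 and 123 CPM in KO LPS members, against 341 and 347 CPM in WT LPS members (log2 fold change -1.48 ± 0.11, adjusted p = 8.6e-05). By mark, Cebpd had 73.8 and 172 CPM in Y-marked KO, 128 and 90.2 CPM in Xist-marked KO and 325 and 352 CPM in Xist-marked WT members. In these 3 genes the Xist-marked KO and WT libraries did not overlap. The prostaglandin E synthase Ptges (-1.37 over all members, -1.17 among Xist-marked ones), the nucleoside transporter Slc28a2 (-1.40 and -1.13), Lipg (-1.30 and -1.15) and Saa3 (-0.96 and -1.61) were lower in KO in both fits. U90926 was lower as well, with 23.3 and 49.6 CPM in KO LPS members, against 94.3 and 124 CPM in WT LPS members. Among Xist-marked members its log2 fold change was -5.07 ± 0.83 (edgeR, adjusted p = 0.0086), a larger difference than over all members.

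Single libraries decided 4 of the 20 genes named here. The actin-severing protein gelsolin (Gsn) had 117 and 23.8 CPM in KO LPS members, against 14.9 and 18.1 CPM in WT LPS members, and without the first KO LPS library its log2 fold change of 2.26 came to 0.54 and was not called. The small homeodomain protein Hopx had 89.4 and 33.8 CPM in KO LPS members, against 18.1 and 16.2 CPM in WT LPS members, and its call was likewise lost without that library. Car4, a carbonic anhydrase of lung capillaries, had 8.79 and 14.9 CPM in KO LPS members, against 127 and 21.9 CPM in WT LPS members. Il1a, a cytokine released by damaged cells, had 30.5 and 37.7 CPM in KO LPS members, against 108 and 52.4 CPM in WT LPS members. Both lost their calls without the first WT LPS library. The metallothionein Mt2 had 108 and 50.6 CPM in KO LPS members, against 204 and 228 CPM in WT LPS members (log2 fold change -1.35 ± 0.23, adjusted p = 0.0058). By mark, Mt2 had 22.6 and 11.5 CPM in Y-marked KO, 183 and 95.2 CPM in Xist-marked KO and 245 and 259 CPM in Xist-marked WT members. It was not called among Xist-marked members or without the members rich in Ccr7 and Fscn1, described below. Arg2 (-1.44) and Rcl1 (-1.55) were lower in KO over all members. Among Xist-marked members neither was called, with log2 fold changes of -1.38 ± 0.35 for Arg2 and -0.64 ± 0.35 for Rcl1.

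Many interferon-stimulated and MHC class I genes, and some NF-kB and acute phase genes, were lower in KO LPS members over all members, with few or none called among Xist-marked ones. Of the 38 interferon-stimulated genes, 20 were lower and none higher in KO LPS members, against 3.09% lower and 2.4% higher over all genes tested, with a median log2 fold change of -0.43. Their median log2 ratio to Xist-marked WT LPS members was -0.70 in Y-marked and -0.10 in Xist-marked KO LPS members, and none was called either way by edgeR in the fit on Xist-marked members, where 16 had an unadjusted p under 0.05. Isg15 had 3711 and 2879 CPM in KO LPS members, against 4815 and 4799 CPM in WT LPS members (log2 fold change -0.54 ± 0.10, adjusted p = 0.0081). Of 19 MHC class I and costimulation genes, 14 were lower in KO, including B2m (-0.74), the light chain of class I molecules, and Cd274 (-0.65), and 1 was lower among Xist-marked members. Of the NF-kB subunits and feedback genes 8 of 19 were lower and of the acute phase genes 7 of 12, against 0 (by edgeR, 5 at an unadjusted p under 0.05) and 2 among Xist-marked members. Nfkbia had 3699 and 3609 CPM in KO LPS members, against 4729 and 4698 CPM in WT LPS members (log2 fold change -0.37 ± 0.06, adjusted p = 0.0061). By mark, Nfkbia had 2165 and 2218 CPM in Y-marked KO, 4418 and 4008 CPM in Xist-marked KO and 3922 and 3995 CPM in Xist-marked WT members. The Y-marked members were the low ones. By mark, Ccl4 had 1173 and 1038 CPM in Y-marked KO, 4094 and 4968 CPM in Xist-marked KO and 5067 and 4531 CPM in Xist-marked WT members. Cxcl10, which was not called over all members (-0.35), had 1333 and 1122 CPM in Y-marked KO, 4915 and 3341 CPM in Xist-marked KO and 3282 and 2975 CPM in Xist-marked WT members. Both chemokines thus stood lower in Y-marked than in Xist-marked members of each KO LPS library. Of 27 patrolling and chemotaxis receptors, 6 were higher and 6 lower in KO. Among the higher ones, Cx3cr1 (2.88), Spn (1.32) and Itga4 (1.32) were genes that fell under LPS, and Cx3cr1 had 26.7 and 45.8 CPM in Y-marked KO, 1.22 and 7.52 CPM in Xist-marked KO and 2.25 and 2.69 CPM in Xist-marked WT members. The lower genes included Icam1 (-0.56) and Fpr1 (-0.49), the call of Fpr1 being lost in 8 of 15 alternatives, among them DESeq2, plain scaling and Xist-marked members.

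Socs1, Socs3 and Nos2 were lower in KO LPS members. Among Xist-marked members none of these 3 genes was called, with log2 fold changes of -1.58 ± 0.47 for Nos2 and -0.060 ± 0.16 for Socs1. Socs1 had 135 and 131 CPM in KO LPS members, against 182 and 194 CPM in WT LPS members (log2 fold change -0.49 ± 0.12, adjusted p = 0.036), a call lost with DESeq2, under plain scaling and without 3 of the 4 LPS libraries in turn. By mark, Socs1 had 73.8 and 115 CPM in Y-marked KO, 162 and 158 CPM in Xist-marked KO and 157 and 181 CPM in Xist-marked WT members. Socs3 had 1635 and 1575 CPM in KO LPS members, against 2114 and 2228 CPM in WT LPS members (log2 fold change -0.43 ± 0.07, adjusted p = 0.0055), and a log2 fold change of 0.013 among Xist-marked members. Nos2 had 9.82 and 2.98 CPM in KO LPS members, against 41.7 and 34.3 CPM in WT LPS members (log2 fold change -2.37 ± 0.39, adjusted p = 0.0049), with 3 to 53 UMIs per LPS library. Tnf had 86.3 and 82.4 CPM in KO LPS members, against 108 and 178 CPM in WT LPS members (log2 fold change -0.74, not called), and Nr4a1 had 445 and 385 CPM in KO LPS members, against 409 and 347 CPM in WT LPS members (log2 fold change 0.14, not called). How far sex, animal or genotype enter these differences was not tested. The labels do not say whether animals were pooled.

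**Figure D4:**
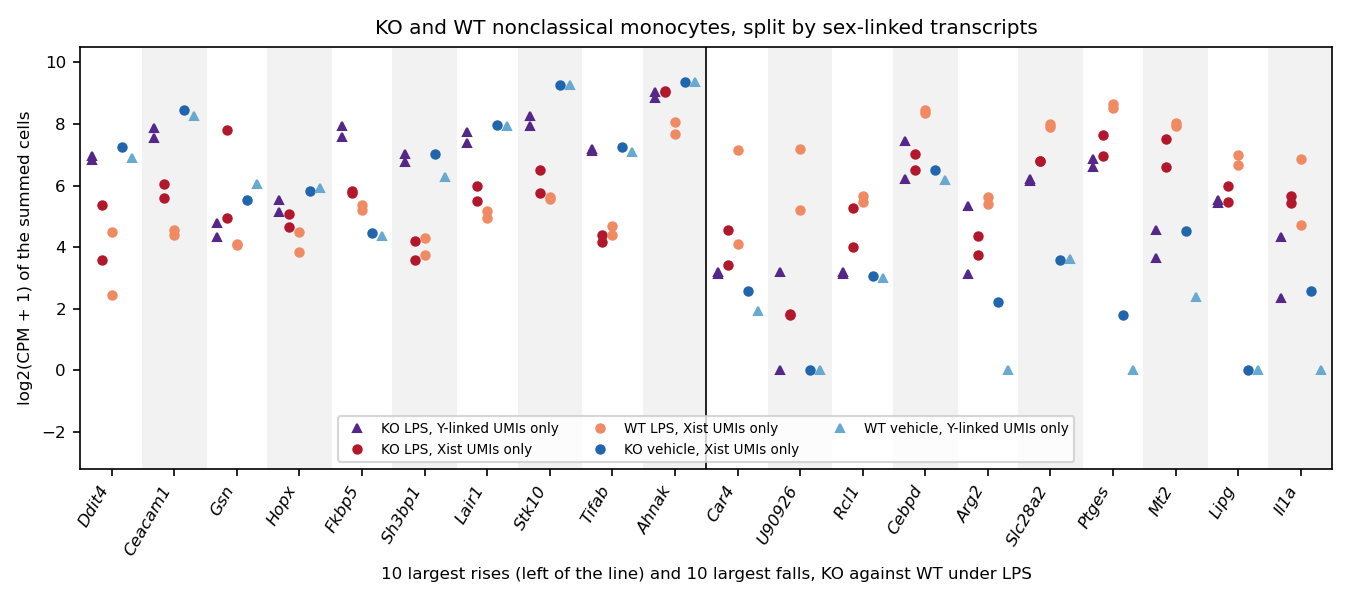
The 10 largest rises and 10 largest falls between KO and WT under LPS, as log2(CPM + 1) of summed cells with plain scaling, shown for Y-marked and Xist-marked KO LPS members, Xist-marked WT LPS members and the marked members of both vehicle libraries, 1 point per library. For Stk10, Lair1, Sh3bp1 and Tifab the Y-marked KO LPS points (for Stk10 305 and 244 CPM) lie nearer the vehicle points than do the Xist-marked points of both genotypes, whereas for Ahnak and Cebpd the Xist-marked KO points lie apart from the WT points.

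The LPS response itself differed between genotypes at fewer genes, with 50 differences positive in KO against WT and 65 negative, 1.3% of the genes tested (0.565% positive and 0.735% negative). Each genotype had 1 vehicle library, and KO vehicle members were Xist-marked and WT vehicle members Y-marked, so genotype and sex mark cannot be told apart here. Ahnak had 557 and 550.1 CPM in KO LPS, 193 and 223 CPM in WT LPS, 544 CPM in KO vehicle and 557 CPM in WT vehicle members, and its LPS response was 1.45 ± 0.17 higher on the log2 scale in KO (SE, edgeR adjusted p = 0.0026). Stk10 had 161 and 173 CPM in KO LPS, 58.9 and 49.5 CPM in WT LPS, 527 CPM in KO vehicle and 537 CPM in WT vehicle members, with log2 fold changes under LPS of -1.66 in KO and -3.30 in WT. Lair1 showed the same order, with log2 fold changes of -0.93 in KO and -2.78 in WT. Dusp1, a phosphatase that switches off MAP kinases, had 2160 and 1992 CPM in KO LPS, 2411 and 2549 CPM in WT LPS, 1340.2 CPM in KO vehicle and 695 CPM in WT vehicle members, with log2 fold changes of 0.63 in KO and 1.83 in WT. For Dusp1 the vehicle libraries differed more than the LPS libraries did. The smaller rises of Ccl5 (difference -2.48) and the stress gene Gadd45b (-2.07) in KO were not called once members with 3 or more UMIs of the mature dendritic cell genes Ccr7 and Fscn1 were left out, 10 in each vehicle library and 3 to 8 in each LPS library.

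Without LPS there was 1 library per genotype and no test, and the intervals cover counting error only. The largest ratio was that of Ccl22, a chemokine of mature dendritic cells, with 276 CPM (95% exact Poisson interval 247 to 309) in KO vehicle members and 61.8 CPM (50 to 75.7) in WT vehicle members. Ccl5 had 1077 CPM (95% exact Poisson interval 1018 to 1139) in KO vehicle members and 318 CPM (291 to 348) in WT vehicle members. A few members carried most of both libraries' Ccl5: the 10% of members with the most held 99.6% of its UMIs in the KO vehicle library and 100% in the WT vehicle library, and 12.6% of KO vehicle members and 8.08% of WT vehicle members had any. The annexin Anxa3 (ratio 3.44) and the G protein regulator Rgs1 (3.02) were also higher in KO. Gzma, a granzyme of killer cells, had 44.0 CPM (95% exact Poisson interval 32.7 to 58.0) in KO vehicle members and 120.4 CPM (104 to 139) in WT vehicle members, and the ratios of Txn2, Stk40, P2ry6 and Phf5a lay between 0.502 and 0.535.

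Classical monocytes of the same libraries were used to ask where the LPS response of the nonclassical cells differs. Of 9538 genes, 733 had a more positive and 826 a more negative response in nonclassical monocytes (16.3% in all, 7.69% more positive and 8.66% more negative), by edgeR with library as a block. The interferon-stimulated genes rose more in nonclassical monocytes, 26 of 38 with none the other way. Vehicle pairs below are the KO library and then the WT library. Isg15 had 2840.1 to 4748 CPM under LPS and 55.7 and 40.0 CPM under vehicle in members, against 3002 to 6973 CPM under LPS and 104 and 176 CPM under vehicle in classical monocytes (difference 1.26 ± 0.13, adjusted p = 4.4e-09). Ifit1, which binds foreign RNA, had 875 to 1249.8 CPM under LPS and 18 and 4.45 CPM under vehicle in members, against 700.5 to 1296 CPM under LPS and 30.6 and 73.9 CPM under vehicle in classical monocytes (difference 2.55 ± 0.27, adjusted p = 5.9e-09). For both genes the LPS ranges of the classes overlapped and the vehicle levels were lower in nonclassical monocytes. Cxcl10 had 2443 to 3745 CPM under LPS and 1.71 and 1.91 CPM under vehicle in members, against 4226 to 7752 CPM under LPS and 13.4 and 102 CPM under vehicle in classical monocytes (difference 3.52 ± 0.49, adjusted p = 1.8e-06), so it was lower in nonclassical monocytes in both conditions. Cd14, a marker of classical monocytes at rest, had 586 to 927 CPM under LPS and 55.7 and 19.1 CPM under vehicle in members, against 582 to 809 CPM under LPS and 412 and 243 CPM under vehicle in classical monocytes (difference 3.36 ± 0.14, adjusted p = 1.8e-18), and its LPS ranges overlapped. Vcan (3.64) and Gas7 (3.10) differed in the same direction, and 8 of 10 classical monocyte markers had a more positive response in nonclassical cells.

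Other genes of that direction stood apart in nonclassical monocytes under LPS. Tnfaip2, an NF-kB target, had 487 to 867 CPM under LPS and 64.3 and 58.4 CPM under vehicle in members, against 147 to 237 CPM under LPS and 163 and 152 CPM under vehicle in classical monocytes (difference 3.08 ± 0.15, adjusted p = 6.5e-17). Pitpnc1, a phosphatidylinositol transfer protein, had 47.5 to 69.0 CPM under LPS and 8.57 and 10.2 CPM under vehicle in members, against 8.57 to 10.8 CPM under LPS and 16.3 and 11.1 CPM under vehicle in classical monocytes (difference 3.07 ± 0.46, adjusted p = 4.9e-06). Stxbp6, which binds SNARE proteins, had 32.2 to 62.8 CPM under LPS and 14.6 and 15.2 CPM under vehicle in members, against 11.9 to 17.3 CPM under LPS and 102 and 111 CPM under vehicle in classical monocytes (difference 4.38 ± 0.27, adjusted p = 2.3e-14). In Tnfaip2 and Pitpnc1 all 4 LPS values exceeded the vehicle values of nonclassical monocytes, and in Stxbp6 the LPS values of classical monocytes lay below their vehicle values. Socs3 also had a larger rise (0.78). Of 18 immediate-early genes, 14 had a more positive response than in classical monocytes. That was not always a rise, since 9 of the 18 rose and 7 fell under LPS in the members.

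In the opposite direction, 14 of 18 nonclassical markers outside the gate had a more negative response in the members. Spn had 37.2 to 105 CPM under LPS and 455 and 457 CPM under vehicle in members, against 13.1 to 37.0 CPM under LPS and 51.7 and 39.4 CPM under vehicle in classical monocytes (difference -1.97 ± 0.20, adjusted p = 2.0e-09). Cx3cr1 had 1.55 to 26.5 CPM under LPS and 469.5 and 495 CPM under vehicle in members, against 13.2 to 16.9 CPM under LPS and 284 and 281 CPM under vehicle in classical monocytes (difference -1.81 ± 0.27, adjusted p = 5.2e-06), and the LPS values of the classes overlapped. Fcgr4 had 518 to 796 CPM under LPS and 218 and 197 CPM under vehicle in members, against 131 to 212 CPM under LPS and 11.5 and 6.16 CPM under vehicle in classical monocytes (difference -2.67 ± 0.26, adjusted p = 1.4e-09): it rose in both, and the class with the lower vehicle level had the larger fold. The same held for Bcl2a1d, with 502 to 739.6 CPM under LPS and 115 and 56.5 CPM under vehicle in members, against 281 to 434 CPM under LPS and 2.87 and 0 CPM under vehicle in classical monocytes, from 3 classical UMIs under vehicle, so the fitted difference (-7.12) depends on a small prior count added in the fit. That applies to all 10 of the largest negative differences, whose classical vehicle sums were 0 to 4 UMIs. Slc12a2 was high in vehicle members, with 5.62 to 18.6 CPM under LPS and 228 and 204 CPM under vehicle in members, against 0.351 to 1.86 CPM under LPS and 0.957 and 0 CPM under vehicle in classical monocytes. Cenpe, a centromere motor of dividing cells, had 0 to 1.96 CPM under LPS and 3.43 and 8.89 CPM under vehicle in members, against 66.9 to 83.5 CPM under LPS and 0 and 4.93 CPM under vehicle in classical monocytes, and 7 of 12 cell cycle genes had a more negative response in nonclassical monocytes. Fscn1, Cxcl16 and Sdc4 lost their calls without the members rich in Ccr7 and Fscn1, Fscn1 and Sdc4 also with DESeq2, and Ccl17 with DESeq2, with plain scaling and with the highest doublet scores removed. The response of Il1b was not called different between the classes (difference 0.07 ± 0.09, edgeR adjusted p = 0.73), nor was that of Socs1 (0.81 ± 0.39, edgeR adjusted p = 0.19).

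**Figure D5:**
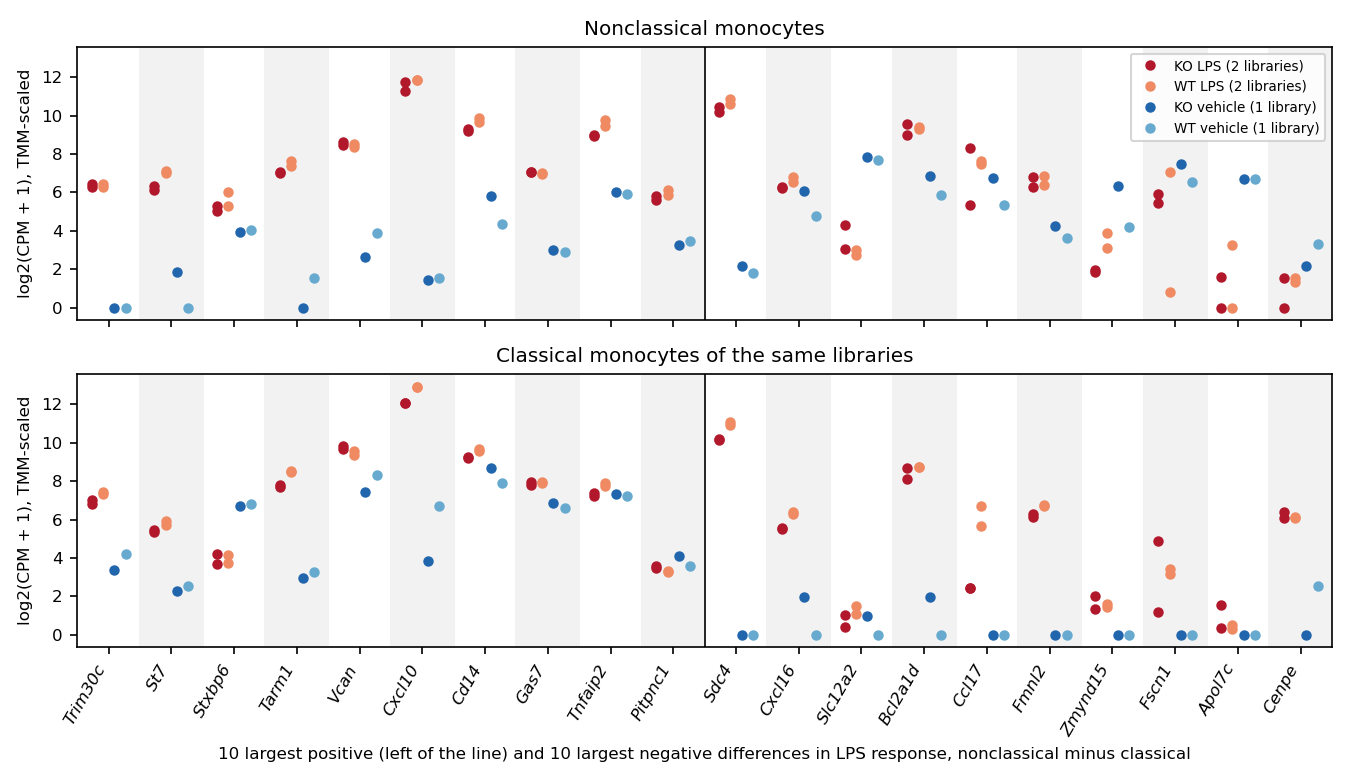
The 10 largest positive and 10 largest negative differences in LPS response between nonclassical and classical monocytes, as log2(CPM + 1) with TMM scaling over both classes, 1 point per library and class. Cd14 and Vcan have lower vehicle points in the upper, nonclassical panel than in the lower, classical one, with Cd14 at 55.7 and 19.1 CPM in nonclassical and 412 and 243 CPM in classical monocytes, and most genes right of the line have classical vehicle points at or near 0.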

How the data were processed

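Single-cell RNA-seq (10x) of CD45-selected lung cells was deposited as 1 filtered matrix of UMI counts per library (6 libraries), which per the submitters' processing notes came from Cell Ranger 6.1.0 and the mm10 build; those notes also list R 4.1.3 and Seurat 4.1.0. No source used here names the gene annotation. The deposited counts were whole numbers that the authors had not normalized, and library totals and members per library stand above.

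The members, gene lists and tests were chosen with earlier results of these data known. UMIs of the members were summed per library and tested with edgeR 4.0.16 (R 4.3.3), with 1 coefficient per group, 2 residual degrees of freedom, TMM scaling, the filterByExpr filter and Benjamini-Hochberg adjustment at 0.05. The 20 genes of the gate and the mitochondrial genes were left out of the tested rows. The class comparison held both classes of each library with library as a block. Shares were compared by exact permutation with scipy 1.17.1, and single cells were handled in Python 3.11.15 with scanpy 1.11.5. Intervals and count floors use 95% and 3 counts. The fits were tested on simulated counts with known changes.

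Genes named by size reached 50 CPM or more in their higher group. The 12 largest rises and falls under LPS and the 10 largest each way between genotypes also had libraries that did not overlap. The 6 smallest p-values of the difference in response and the 10 largest each way between classes were named without that condition. The 5 members with the smallest p of each list, and genes of known role, were named beside them, so members named outside these rules were chosen after their values were seen. Predicted, ribosomal and sex-linked genes were left out of the size rules. A few genes that meet these rules are not reported here. Scrublet's own threshold called 0 or 1 doublets in 5 libraries and 1923 in the WT vehicle library, so no doublets were removed in the main analysis, and the highest scores, 5395 cells at the expected rate, were removed in an alternative. Alternatives included DESeq2 1.42.0, plain scaling, no low-count filter, other gates, leaving out each library and, chosen after seeing the data, members without mature dendritic cell genes, with at least 2 genes of the gate, or by sex mark.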

Additional observations from a re-analysis of the deposited data

Results flagged for a closer look

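For 6 genes the LPS response of the members differed between genotypes by a test of the difference itself (edgeR's quasi-likelihood test over 8848 genes). The differences, KO minus WT on the log2 scale, were 1.45 for Ahnak, 1.85 for Lair1, 1.63 for Stk10, -1.20 for Dusp1, -2.07 for Gadd45b and -2.48 for Ccl5. The adjusted p-values were 0.0026 for Ahnak, 0.0032 for Lair1, 0.0033 for Stk10, 0.0017 for Dusp1, 9.7e-04 for Gadd45b and 2.1e-05 for Ccl5. Each genotype had 1 vehicle library, whose marked members were Xist-marked in KO and Y-marked in WT. The calls of Ccl5 and Gadd45b were lost without members rich in Ccr7 and Fscn1. Among members with at least 2 genes of the gate, the call of Gadd45b was lost too, at -0.33, and the difference of Ccl5 came to 0.57.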

How the results depend on the processing

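Counts of called genes moved with the tool, the scaling, the low-count filter, the replicate block and the members used. With DESeq2 the LPS calls were 1288 higher and 804 lower, the KO calls 49 and 89, the differences in response 12 and 42, and the class differences 228 and 208. Plain scaling gave 1546 and 3446 LPS calls and 300 and 176 KO calls. Without a low-count filter the KO calls were 380 and 392, and the differences in response 163 and 141. Within KO, 1383 genes were lower under LPS. Among members with at least 2 genes of the gate, 36 and 31 genes differed in response. The replicate 1 minus 2 differences of the KO and WT LPS libraries had a correlation of 0.0083 over genes. With 2 pairs, that value cannot say whether equal replicate numbers mark paired libraries. With the replicate block the KO calls were 346 and 409 and the differences in response 128 and 157. Xist-marked members alone gave 27 and 26 KO calls.

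Leaving out 1 library gave 1647 to 2460 higher and 1310 to 2331 lower genes under LPS, 185 to 317 and 253 to 286 between genotypes, 91 to 133 and 140 to 159 for the difference in response, and 596 to 764 and 662 to 884 between classes. The lowest LPS counts came without the WT vehicle library. The log2 difference in the share of members was 0.12 outside the neutrophil gate, -0.15 with at least 2 and -1.09 with at least 5 UMIs of the gate's genes, -2.33 per classical monocyte, -1.90 in thinned cells, and -0.57 to -0.40 without 1 LPS library.

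Of 1342 values of named genes for KO against WT under alternatives, 161 lost the call and 16 changed sign, all 16 among Xist-marked members: Ccr2 -0.30, Cd40 0.015, Chil3 -0.26, Dusp2 0.014, Ebi3 0.0024, Ifit1 0.078, Il4ra 0.047, Klf4 -0.24, Lyz2 -0.0032, Nfkbia 0.10, S1pr5 -0.15, Sh3bp1 -0.19, Socs3 0.013, Tgfb1 -0.25, Tifab -0.30 and Xist 0.16. Of 2782 LPS values, 54 lost the call and 6 changed sign: Ahnak (-1.42 to 0.020 without 1 library, the highest without the WT vehicle library), Gzma (-0.28 with the highest doublet scores removed), and, among Xist-marked members and without the WT vehicle library, Tsix (-0.28 and -1.51) and Xist (-0.26 and -1.24). Without the KO vehicle library Tsix came to 7.77. Of 385 values for the difference in response, 28 lost the call and 1 changed sign, Ccl5 at 0.57 among members with at least 2 genes of the gate. Of 218 class values 12 lost the call. The cause of these changes was not tested. Genes at low CPM rest on few UMIs, since members held 960429 to 2033712 UMIs per library, and 2 residual degrees of freedom limit every test.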
